A study of Mus musculus with 18 samples.

Results

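The Hox genes are the homeobox transcription factor genes that lie in 4 clusters of the mouse genome. They were taken here as every protein-coding gene in the count table whose symbol is Hoxa, Hoxb, Hoxc or Hoxd followed only by a number. The rule found 39 genes among 55487 gene identifiers, 11 in HoxA, 10 in HoxB, 9 in HoxC and 9 in HoxD. The number in a symbol is the paralogue number, which runs along each cluster from 1 to 13 and marks genes of related sequence in different clusters.

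The RNA came from MEFs (mouse embryonic fibroblasts), which are connective-tissue cells of embryonic origin kept in culture. They were plated, given 0 µM (control), 10 µM or 30 µM uracil in growth medium for 24 h, and had no other treatment or genetic change that the labels name. Each dose had 6 libraries of total RNA depleted of ribosomal RNA, and the labels number them 1 to 6, so that every number occurs once at each dose. The study's methods call the libraries of a dose biological replicates. The labels do not say what a number stands for, nor whether libraries came from separate embryos or cultures, so p-values measure the spread between these libraries only.

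Hox proteins tell cells of an embryo where they lie along the head-to-tail axis, and the genes are switched on in the order in which they stand in the cluster. Genes of low paralogue number are known for the hindbrain and neck, those of middle number for the trunk, and those of high number for the lumbosacral region and the tail. HoxA and HoxD genes of high number are used a further time in the limb bud, where the paralogues with the highest number pattern the hand and foot, and cultured fibroblasts are known to keep much of the Hox pattern of the site they were taken from.

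On GRCm39 with GENCODE M39 annotation, HoxA spans chr6:52132570-52237822 on the minus strand, HoxB chr11:96085106-96259082, HoxC chr15:102829538-102945278 and HoxD chr2:74498654-74595486, the last 3 on the plus strand. RefSeq held a promoter entry on GRCm38.p6 for 22 of the 39 genes. The 250 bases before the start site are shown for 4 of them: Hoxd13, the gene with the highest level, Hoxd12 and Hoxd8, whose levels differed between replicate numbers, and Hoxb1, which had no count in any library. Capitals mark CpG, a C followed by a G, the pair that DNA methylation acts on.
Hoxd13 (chr2:74667975-74668224, plus strand): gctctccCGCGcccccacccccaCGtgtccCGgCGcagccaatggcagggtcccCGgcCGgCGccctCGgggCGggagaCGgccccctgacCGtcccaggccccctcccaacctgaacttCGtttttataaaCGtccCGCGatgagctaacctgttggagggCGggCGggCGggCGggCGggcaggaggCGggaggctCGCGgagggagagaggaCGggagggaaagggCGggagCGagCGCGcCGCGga
Hoxd12 (chr2:74674763-74675012, plus strand): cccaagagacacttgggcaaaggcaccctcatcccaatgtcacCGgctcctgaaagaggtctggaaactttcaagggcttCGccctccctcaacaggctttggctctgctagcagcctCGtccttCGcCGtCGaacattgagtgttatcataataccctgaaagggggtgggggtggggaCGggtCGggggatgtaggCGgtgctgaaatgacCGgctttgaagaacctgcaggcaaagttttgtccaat
Hoxd8 (chr2:74704365-74704614, plus strand): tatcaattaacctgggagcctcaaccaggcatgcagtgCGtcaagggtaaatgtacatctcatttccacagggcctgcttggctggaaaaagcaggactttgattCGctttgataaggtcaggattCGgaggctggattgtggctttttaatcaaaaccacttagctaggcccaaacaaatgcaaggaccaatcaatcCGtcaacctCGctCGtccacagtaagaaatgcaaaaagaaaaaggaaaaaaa
Hoxb1 (chr11:96365508-96365757, plus strand): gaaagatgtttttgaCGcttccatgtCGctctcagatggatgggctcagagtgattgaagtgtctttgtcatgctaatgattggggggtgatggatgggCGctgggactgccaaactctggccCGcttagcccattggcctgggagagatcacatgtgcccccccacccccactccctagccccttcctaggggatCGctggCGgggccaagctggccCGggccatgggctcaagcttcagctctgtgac
The Hoxd13 stretch holds 31 CpG, more than 94.8% of the 32851 promoter entries of the same length. Hoxd12 holds 10, Hoxd8 holds 6 and Hoxb1 holds 7, and the median of all entries is 6, with at least 1 CpG in 92.1% of them. The undetected Hoxb1 therefore has about as many as the well-detected Hoxd8. Among the 24 entries for Hox genes the count ran from 2 to 35 with a median of 12.5, and the highest was that of Hoxa13.

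The libraries held 3963932 to 20775298 read pairs counted in genes. In 3 of them more pairs failed to align than in any other, 54.2% in control library 1, 37.9% in 30 µM library 6 and 5.24% in 10 µM library 6, against 1.72% to 3.59% in the other 15. The study's methods say that a library of the control arm and a library of the higher-dose arm were dropped because they held human RNA. The labels do not name those libraries, and whether they are among these 3 is not known. All 18 were kept, and the Hox results are also given without the 3. Defining fibroblast genes were abundant. In CPM (counts relative to a common library size, scaled by TMM) Col1a1 had a median of 7692, Vim 5610 and Thy1 43.6, while the muscle regulator Myod1 had no count and the leukocyte gene Ptprc a median of 0.0511.

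The MEFs expressed mainly Hox genes of high paralogue number from HoxA and HoxD, a moderate set from HoxB and little from HoxC. Levels are compared between genes as CPM per kb of exon. Genes of paralogue numbers 9 to 13 made up 74.7% ± 2.39 of the summed Hox level per kb (SD, n = 18 libraries), those of numbers 5 to 8 made up 15.6% ± 1.21, and those of numbers 1 to 4 made up 9.78% ± 1.52. By cluster, HoxD gave 52.5% ± 3.95, HoxA 30.0% ± 3.28, HoxB 15.6% ± 2.20 and HoxC 1.97% ± 0.712. Without the 3 libraries with most unaligned pairs HoxD gave 50.9% ± 1.44, HoxA 31.2% ± 1.40, HoxB 15.8% ± 2.23 and HoxC 2.08% ± 0.613 (SD, n = 15). Numbers 9 to 13 then made up 74.1% ± 2.14. The mean paralogue number, weighted by level, was 10.1 ± 0.206 over all 18 libraries.

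**Figure D1:**
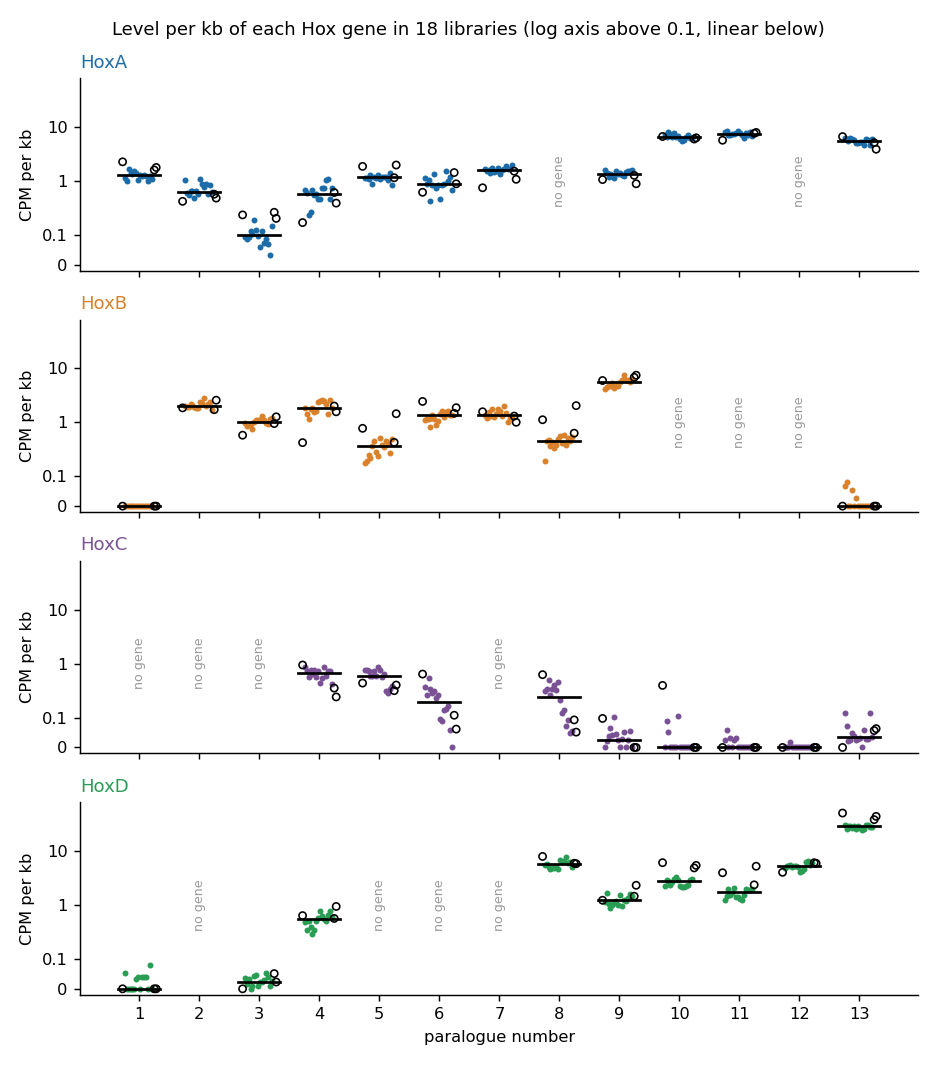
Level of each of the 39 Hox genes in CPM per kb of exon (log axis above 0.1, linear below) by paralogue number, 1 panel per cluster. Each point is 1 of 18 libraries, placed from left to right by replicate number; open circles are the 3 libraries with the most unaligned pairs and lines are medians. Hoxd13 stands above all others, Hoxa10, Hoxa11 and Hoxa13 lead HoxA, and HoxC genes 9 to 13 lie near 0.

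Hoxd13, which patterns the digits and external genitalia, led all members in all 18 libraries. Its level per kb was 24.6 at the lowest, 29.0 at the median and 50.9 at the highest, and it gave 32.9% ± 3.40 of the summed Hox level on its own. Without the 3 libraries with most unaligned pairs the highest level was 31.1 and the share 31.6% ± 1.47. The median over all 18 libraries was 3.82 times that of Hoxa11, next in order. Among the 14129 protein-coding genes with a median above 0, 92.8% lay below Hoxd13.

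After Hoxd13 came 6 genes whose ranges overlapped. Hoxa11, a gene of the forearm and lower leg and of the uterus, had a median of 7.60 CPM per kb (5.70 to 8.55). Hoxa10, known for the upper limb segments and the uterus, had 6.61 (5.60 to 8.19), Hoxd8 5.83 (4.69 to 7.96), Hoxb9 5.62 (4.13 to 7.62), Hoxa13 5.60 (3.89 to 6.66) and Hoxd12 5.32 (4.04 to 6.50). Neighbours in this order differed by less than their ranges over the libraries. The order also depends on the length used. Hoxa10 had a median of 21.8 CPM over 3.30 kb of exon, but its longest transcript is 2.58 kb. By that length it comes before Hoxa11, with 17.6 CPM over 2.32 kb by either length. Hoxa9 then also comes before Hoxa7, and Hoxd11 before Hoxd10. The strand setting of the counting is not given in the sources used here, and 43.6% of the Hoxa11 exon bases overlap its antisense gene Hoxa11os. If strand was ignored, pairs in the shared bases may have gone uncounted as ambiguous, so the level of Hoxa11 is uncertain. In all, 14 members overlap a gene on the other strand, and the largest part was 51.5%, in Hoxb3.

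Within HoxA the fourth gene was Hoxa7 at a median of 1.62 CPM per kb, and the lowest was Hoxa3, a gene of the pharyngeal arches, at 0.0998 (0.0325 to 0.262). All 11 HoxA genes had a count in every library. HoxB was led by Hoxb9, followed by Hoxb2 at 2.02, Hoxb4 at 1.82 and Hoxb7 at 1.35. Hoxb13, the tail-end gene of HoxB, had 9 counts in all, spread over 4 libraries. No library had a count of Hoxb1, a gene of the hindbrain, and a count of 0 allows up to 3 counts, or 0.0623 to 0.348 CPM per kb depending on the library. These limits cover counting error only.

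HoxC genes were low throughout. Hoxc4 had a median of 0.674 CPM per kb, Hoxc5 0.581, Hoxc8 0.239 and Hoxc6 0.195. The 5 genes Hoxc9 to Hoxc13, the posterior members of the cluster, had 24, 11, 6, 1 and 30 counts over all 18 libraries. In HoxD, the fourth gene was Hoxd10 at 2.83 (2.12 to 6.10). Hoxd4 had a median of 0.554 and Hoxd3 of 0.0241, but 52.0% and 38.2% of their exon bases are shared with genes on the same strand, where read pairs may have gone uncounted as ambiguous, so both levels may be understated. Hoxd1 had 9 counts in all.

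The order of genes was similar from library to library. Spearman's rho between the levels per kb of the 30 members with enough counts was at least 0.721 in the 153 pairs of libraries, with a median of 0.949. Without the 3 libraries the lowest was 0.889. The values are across genes of libraries with different depth and are given as a description.

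Of the 39 members, 30 passed the filter on low counts and entered the tests across 13865 genes. The other 9 were Hoxb1, Hoxb13, Hoxc9 to Hoxc13, Hoxd1 and Hoxd3, each under 1 CPM in every library. In 20 members every library was above 1 CPM.

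The dose comparisons ask whether uracil for 24 h altered the Hox code of the cells. No Hox gene passed the threshold (adjusted p below 0.05, edgeR quasi-likelihood test, Benjamini-Hochberg over all genes) in any of the 3. With 10 µM against control, 0 of 30 members and 0% of all genes were called. An unadjusted p below 0.05 was reached by 0 members, against 96 genes or 0.692% of all. With 30 µM against control, 0 of 30 members and 0% of genes were called, and 0 members were below 0.05 unadjusted, against 595 genes or 4.29%. With 30 µM against 10 µM, 0 members and 0% of genes were called, and 0 members were below 0.05 unadjusted, against 323 genes or 2.33%. DESeq2 and limma voom also called 0 members in each. Under voom 2, 2 and 1 members were below 0.05 unadjusted in this order of comparisons, and under DESeq2 there were 0. The shares of all genes under voom and DESeq2 are not given here, so nothing is read from these counts.

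At 10 µM 12 were higher and 18 lower than control with a median log2 change of -0.04, beside 0.01 over all genes. At 30 µM 15 were higher and 15 lower, with a median of 0.00 beside 0.01 over all genes. Between 30 µM and 10 µM 19 were higher and 11 lower, with a median of 0.05 beside 0.01 over all genes. The last comparison shares libraries with the other pair.

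**Figure D2:**
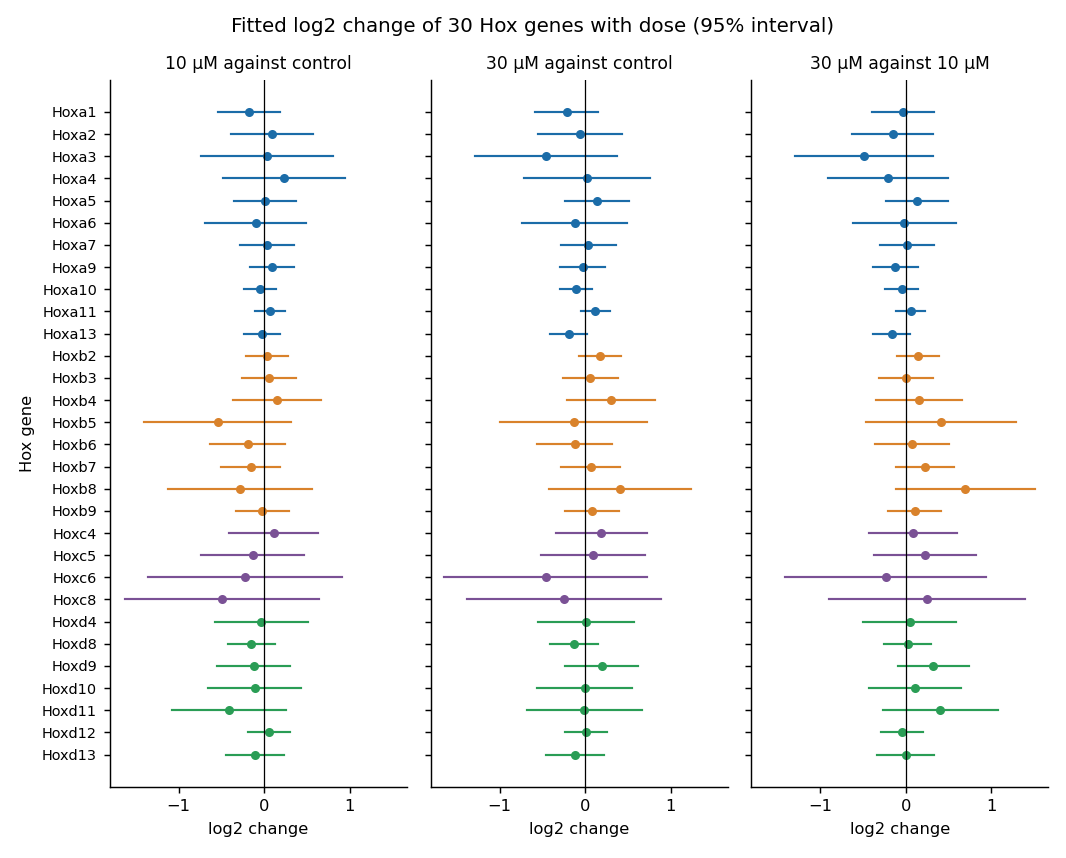
Fitted log2 change of the 30 tested Hox genes in the 3 dose comparisons, coloured by cluster (blue HoxA, orange HoxB, purple HoxC, green HoxD), with 95% intervals as lines. Every interval spans 0, and those of Hoxc6 and Hoxc8 are the widest in each comparison.

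How small a change could be missed differed by gene. Hoxd13 had 67.5, 72.4 and 126 CPM (lowest, median, highest of 6) in control, 61.1, 73.6 and 95.3 at 10 µM and 62.8, 68.1 and 110 at 30 µM. The groups overlapped, and the highest value of each of the 3 was that of a library with many unaligned pairs. Its log2 change was -0.11 at 10 µM (95% interval -0.45 to 0.23) and -0.11 at 30 µM (-0.45 to 0.23). For Hoxa11 the interval at 30 µM was narrower, -0.05 to 0.29, and for Hoxc8 it was -1.38 to 0.88. The median half-width over the 30 members was 0.43 on the log2 scale. These intervals come from a fit of dose without replicate number. Libraries of the same number deviated together, so a fit with number in the model may have other limits.

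The 3 members with the smallest unadjusted p in each comparison were as follows. At 10 µM against control they were Hoxb5, Hoxd11 and Hoxd8. Hoxb5, a gene of the neck and lung, had 0.702, 1.30 and 2.15 CPM (lowest, median, highest) in control and 0.499, 0.904 and 1.18 at 10 µM, a log2 change of -0.54 ± 0.41 (SE, n = 6, edgeR adjusted p = 1.00). Hoxd11, which acts with Hoxa11 in the forearm, had 7.51, 11.9 and 23.4 CPM in control and 7.33, 8.59 and 13.97 at 10 µM, a log2 change of -0.41 ± 0.32 (n = 6, edgeR adjusted p = 1.00). Both groups overlapped in both genes. The Hoxd11 value was -0.22 without control library 1. Hoxd8 gave -0.15 ± 0.13 (SE), which was -0.09 without control library 1 and -0.06 without control library 5.

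At 30 µM against control they were Hoxa13, Hoxb2 and Hoxa11. Hoxa13, the HoxA partner of Hoxd13 in hand and foot, had 12.996, 14.5 and 16.7 CPM in control and 9.75, 12.1 and 15.1 at 30 µM, a log2 change of -0.19 ± 0.10 (SE, n = 6, edgeR adjusted p = 0.931). Hoxb2, of the hindbrain, gave 0.18 ± 0.12, or 0.11 without 30 µM library 4, and Hoxa11 gave 0.12 ± 0.08, or 0.07 without control library 1. Against 10 µM the 30 µM libraries gave 0.69 ± 0.39 for Hoxb8, -0.17 ± 0.10 for Hoxa13 and 0.32 ± 0.20 for Hoxd9. The Hoxb8 value turned on 30 µM library 6, at 5.42 CPM against 1.14 to 1.55 in the other 5, and without that library it was 0.22. The Hoxd9 value was 0.18 without it.

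Without the 3 libraries with many unaligned pairs there were again 0 calls at each dose. Hoxd11 then had an unadjusted p of 0.0157 at 10 µM, with a log2 change of -0.37 ± 0.14 (edgeR, adjusted p = 0.998, n = 5). Hoxb5 had 0.0468 at 30 µM, with -0.58 ± 0.27 (edgeR, adjusted p = 0.944, n = 5). Neither passed the correction over all genes. Each was the only 1 of 30 members below 0.05 unadjusted in its comparison. Beside them stood 656 of 13888 genes at 10 µM and 602 of 13888 at 30 µM, so nothing about Hox genes is read from them.

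HoxD gave 53.5% ± 4.63 of the summed level per kb in control, 52.0% ± 3.25 at 10 µM and 51.8% ± 4.37 at 30 µM (SD, n = 6 each). Of 18 exact permutation tests, 2-sided, of the 4 cluster shares, the share of numbers 9 to 13 and the weighted paralogue number, the smallest p was 0.275 (HoxB, 16.6% ± 2.42 at 30 µM against 15.02% ± 2.14 in control, n = 6 each, adjusted p = 0.955). Within replicate numbers, a comparison chosen after seeing the data, the HoxB share was higher at 30 µM than in control in 6 of 6 numbers, by 0.223 to 2.86 percentage points (mean 1.57). It was also higher than at 10 µM in 6 of 6 numbers, by 0.367 to 2.19 points (mean 1.36), and both comparisons use the same 30 µM libraries. Neither passed the correction over 18 tests (exact test over sign changes, p = 0.0312 and adjusted p = 0.281 for each). That p is the smallest that 6 numbers allow. No comparison could pass the correction unless most of the 18 tests reached that p, so it does not decide whether the HoxB share differed. Without the 3 libraries the smallest p of the permutation tests was 0.0873, for HoxD at 30 µM against control (exact permutation test, adjusted p = 0.780, n = 5 each).

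**Figure D3:**
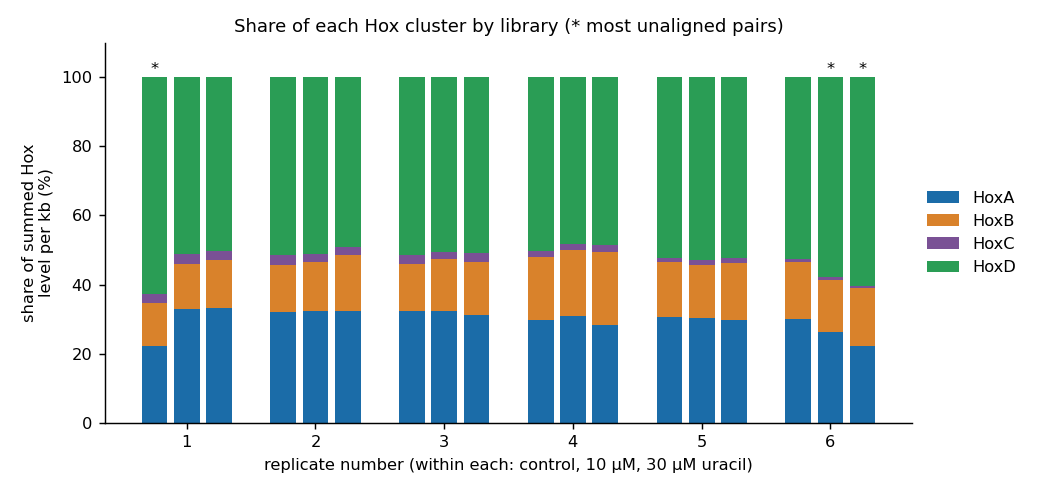
Share of the summed Hox level per kb in each cluster (%), 1 bar per library, grouped by replicate number and ordered control, 10 µM and 30 µM within each. HoxD takes 48.3% to 52.9% in the 15 other libraries and 57.9% to 62.8% in the 3 marked with an asterisk, which have the most unaligned pairs.

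Some Hox genes differed between replicate numbers, in a share of members not far above that of all genes. The number test asks whether libraries that share a number resemble each other, with dose in the model. It called 6 of 30 members, against 1745 of 13865 genes, or 12.6%. The 6 were Hoxc8, Hoxc5, Hoxc6, Hoxd12, Hoxb9 and Hoxd8, of which 3 were among the 4 HoxC genes tested, 1 among 8 of HoxB, 2 among 7 of HoxD and 0 among 11 of HoxA. Clusters were not tested against each other. Without the 3 libraries the test called 7 of 30, beside 20.8% of all genes, the same 6 with Hoxa10 added. The count was 3 on leaving out control library 2, control library 3 or 10 µM library 2, 10 without control library 6 and 11 without control library 1. The share of all genes called in those fits is not given here. The span, the difference between the highest and the lowest number on the log2 scale, had a median of 0.63 over the 30 members and 0.37 over all genes. Within HoxC it was 1.81 and within HoxA 0.36. The 4 HoxC genes tested had 0 to 47 counts per library. Hoxc6 and Hoxc8 passed the filter on low counts only through numbers 1 to 3, where they were high. In numbers 4 to 6 they reached at most 0.408 and 0.646 CPM. The share of HoxC genes called and the HoxC span are therefore in part set by the filter, and nothing is read from them.

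Hoxc8, a gene of the thoracic region, differed the most clearly. In control, 10 µM and 30 µM order it had 1.89, 0.948 and 1.02 CPM in number 1, 1.51, 0.8004 and 1.02 in number 2, 1.21, 0.960 and 1.38 in number 3, 0.646, 0.371 and 0.423 in number 4, 0.2199, 0.272 and 0.149 in number 5, and 0.168, 0.278 and 0.155 in number 6. All 9 libraries of numbers 1 to 3 lay above all 9 of numbers 4 to 6. The labels give no such grouping of the numbers, and the share of all genes that divide this way was not counted. The division is therefore not read as particular to HoxC, here or in the genes and markers below. The span was 2.40 (edgeR adjusted p = 0.000242), and Hoxc8 remained called in each of 18 fits that left out 1 library. Its counts were 1 to 28 per library.

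Hoxc6, also of the thorax and of the forelimb level, had 0.658 to 1.62 CPM in number 1, 0.721 to 1.35 in number 2, 0.576 to 0.772 in number 3, 0.223 to 0.352 in number 4, 0.149 to 0.408 in number 5 and 0 to 0.278 in number 6. Again numbers 1 to 3 did not overlap with numbers 4 to 6, a division whose share over all genes was not counted. The span was 2.65 (edgeR adjusted p = 0.00877), on 0 to 25 counts per library. The size of the span rests on the few counts of number 6: it was 4.05 without 10 µM library 6 and 7.23 without the 3 libraries, which leave number 6 with a single library at 0. Hoxc5, of the neck and upper trunk, split elsewhere. It had 1.35 to 2.39 CPM in number 1, 1.79 to 2.27 in number 2, 1.86 to 2.69 in number 3 and 1.78 to 2.34 in number 4, but 0.885 to 1.05 in number 5 and 0.973 to 1.24 in number 6. The libraries of number 4 were thus among the high ones for Hoxc5 and among the low ones for Hoxc6 and Hoxc8. Its span was 1.22 (edgeR adjusted p = 0.00393).

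Hoxc4, which leads HoxC in level, was not called (edgeR adjusted p = 0.133). It had 1.91 to 2.42 CPM in number 1 and 0.619 to 1.09 in number 6, and numbers 2 to 5 lay between 1.13 and 2.25. HoxC as a whole gave 2.16% to 2.79% of the summed Hox level per kb in numbers 1 to 3, 1.64% to 2.19% in number 4 and 0.706% to 1.48% in numbers 5 and 6.

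**Figure D4:**
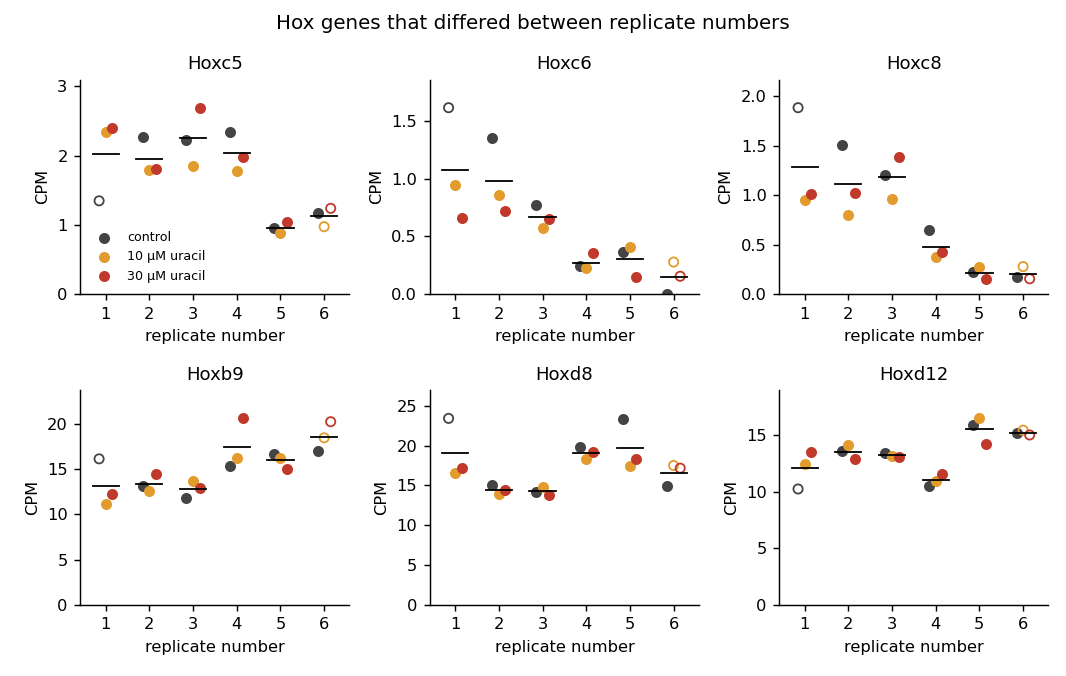
CPM (linear axis from 0) of the 6 Hox genes called in the number test, by replicate number. Points are libraries, coloured by dose, open for the 3 with the most unaligned pairs, and lines are means of the 3 libraries of a number; Hoxc6 and Hoxc8 are higher in numbers 1 to 3, and Hoxb9 is mostly lower there.

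Hoxb9, which acts at thoracic level and in the mammary gland, ran the other way. It had 11.2 to 16.2 CPM in number 1, 12.6 to 14.5 in number 2 and 11.8 to 13.8 in number 3, against 15.4 to 20.6 in number 4, 15.01 to 16.7 in number 5 and 16.996 to 20.3 in number 6. The highest value of number 1 was control library 1, and without it the 8 libraries of numbers 1 to 3 ended at 14.5, below the 9 others. The span was 0.55 (edgeR adjusted p = 0.0265).

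The 2 HoxD genes were called on small spans with no such division. Hoxd12, of the distal limb, was lowest in number 4 at 10.5 to 11.6 CPM, apart from the 10.2 of control library 1, and highest in numbers 5 and 6 at 14.2 to 16.5 (span 0.50, edgeR adjusted p = 0.0200). Hoxd8, of the trunk, had 13.8 to 15.1 CPM in numbers 2 and 3 and 17.5 to 23.3 in numbers 4 and 5 (span 0.46, edgeR adjusted p = 0.0368). The calls of Hoxd8, Hoxb9 and Hoxd12 were lost on leaving out any of 11, 6 and 4 of the 18 libraries in turn, with adjusted p up to 0.0997, 0.0653 and 0.0775.

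The posterior genes that lead the code, Hoxd13 and Hoxa11, were not called in the number test. Hoxa11 had 13.2 to 19.8 CPM in number 1, 16.7 to 17.5 in number 2, 17.2 to 19.3 in number 3, 14.7 to 18.0005 in number 4, 16.6 to 18.7 in number 5 and 15.99 to 18.4 in number 6 with a span of 0.15 (edgeR adjusted p = 0.895), which ran from 0.10 without 30 µM library 4 to 0.28 without control library 4 and was 0.25 without control library 1. Hoxd13 had 61.1 to 77.1 CPM in the 15 other libraries, and its span without the 3 was 0.20 (edgeR adjusted p = 0.321). In all 18 its span was 0.53 (edgeR adjusted p = 0.302), with the highest values in control library 1 and 30 µM library 6.

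The 3 libraries with many unaligned pairs lay above all 15 others in 5 of 30 members, beside 11.7% of all genes, so nothing is read from the count about Hox genes. The 5 were Hoxd13 (95.3, 110 and 126 CPM against 61.1 to 77.1), Hoxd11 (13.97, 23.4 and 30.9 against 7.33 to 12.1), Hoxd10 (9.04, 10.1 and 11.3 against 3.94 to 6.08), Hoxb8 (1.67, 2.96 and 5.42 against 0.499 to 1.55) and Hoxa3 (1.39, 1.62 and 1.81 against 0.224 to 1.303). All 3 lay below the 15 others in 0 members, beside 6.30% of all genes. At least 2 lay above in 9 members and below in 4, which were Hoxa2, Hoxa7, Hoxa9 and Hoxc4. For Hoxa7 the values were 2.15, 3.09 and 4.38 CPM, the last inside the 3.87 to 5.64 of the others. The share of pairs outside any gene was 9.73% to 15.5% in the 3 and 6.85% to 8.66% in the others, and the part of this in the Hox values was not tested.

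Other genes of position gave a setting for the Hox code, as counts of 9 lists in which 70 genes were tested. Replicate number called 13 of these, 28 without control library 1, 30 without control library 6 and 21 without the 3 libraries, and no dose comparison called any. Of all genes, 12.6% were called by number with all 18 libraries and 20.8% without the 3. The shares in the other fits are not given here. Of the 15 limb factors, 13 were tested and 3 called, with a median span of 0.65. They were Tbx4, the hindlimb gene, Prrx2, of limb mesenchyme, and Shox2, of the upper limb bones. Tbx4 had 4.03 to 6.14 CPM in numbers 1 to 3 and 1.26 to 2.96 in numbers 4 to 6 (span 1.75, edgeR adjusted p = 8.22e-06), with the same division of numbers as for Hoxc8. Tbx5, the forelimb gene, had 3.64 to 5.23 and 2.15 to 5.60 CPM in these numbers (edgeR adjusted p = 0.0597), and was called without the 3 libraries (0.0229). Lmx1b, of the dorsal limb, was not called in either (edgeR adjusted p = 0.0530 and 0.161).

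The cofactors of Hox proteins, the TALE homeodomain genes (Meis, Pbx, Pknox and Tgif), were all detected. Of 11 tested, 3 were called by number, Tgif1, Tgif2 and Meis3, and the median span was 0.47. Pbx3 and Pknox2 came next and were not called (edgeR adjusted p = 0.160 and 0.0573), but Pbx3 was called without the 3 libraries (0.0164). Polycomb and Trithorax genes hold Hox clusters silent or active. Of 26, 3 were called, among them Cbx2 and Ezh1 (median span 0.47), and Cbx6 and Kmt2d followed with adjusted p of 0.0624 and 0.0819 (edgeR). Without the 3 libraries 6 were called, Ezh1 was not (0.0663), and Cbx6 (0.000479) and Kmt2d (0.0149) were. Cbx2 had 11.8 to 18.8 CPM in numbers 1 to 3 and 17.5 to 24.6 in numbers 4 to 6. Kmt2d, which encodes a histone methyltransferase, reached 456 CPM in a library with many unaligned pairs, against a median of 27.8.

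Of 14 noncoding RNAs of the clusters, 11 were found and 5 tested, and 0 were called (median span 0.36). Hoxa11os had a median of 16.7 CPM, Hotairm1 1.77 and Hoxb5os 2.42, while Hotair, which lies in HoxC, had 1 count in all. Of 11 neighbours of the clusters, 10 were found and 7 tested with 0 calls (median span 0.39), and Evx2, a homeobox gene beside Hoxd13, had 2.05 to 5.26 CPM with a median of 2.76. The 6 microRNA genes of the clusters had at most 74 counts, and none was tested. The 6 ParaHox genes, relatives of the Hox genes in gut and brain, had at most 3 counts each, with 4 at 0. Of 12 head factors 3 were tested and 1 called, and Otx2, the forebrain gene, had no count, while Dlx1 and Dlx2 were at medians of 5.32 and 2.75 CPM. The gene called was Alx4, with a mean under 1 CPM. Of 11 visceral factors 5 were tested and 3 called, Hand2, Gata4 and Gata6, and Foxf2 and Foxf1 were not (median span 0.68). Gata6 had 31.2 to 42.8 CPM in numbers 1 to 3 and 43.3 to 68.4 in numbers 4 to 6.

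Cell type markers differed between the same numbers. All 6 tested of 7 mesothelial markers were called, and the list summed to 118 to 168 CPM in numbers 1 to 3 and 277 to 402 in numbers 4 to 6. Of 5 cartilage markers 2 of the 3 tested were called, the sum was 26.1 to 58.4 and 9.19 to 22.9 CPM, and Col9a1 was at 0. Of 7 epithelial markers 1 of 4 tested was called, Krt14, and the sum was 7.48 to 18.6 and 23.7 to 44.0 CPM. Of 10 fibroblast markers 6 were called, among them Lum, Dcn, Pdgfra, Pdgfrb and Fbn1, with sums of 28764 to 41763 and 27066 to 59457 CPM. Endothelial (0 of 2 tested), leukocyte (0 of 2), neural and glial (0 of 1) and skeletal muscle markers (0 of 1) gave no call, with sums of at most 12.03, 5.73, 46.4 and 1.73 CPM, the neural sum being almost all Tubb3. In bulk RNA, fewer cells of a type and less RNA per cell cannot be told apart. The part of these cell types in the HoxC and Hoxb9 differences was not tested.

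**Figure D5:**
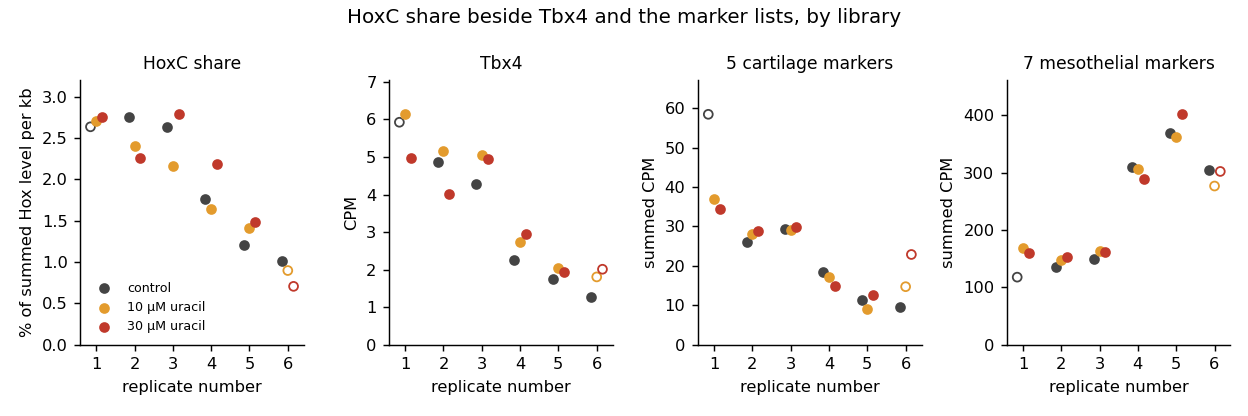
HoxC share (% of the summed Hox level per kb), Tbx4 (CPM), and the summed CPM of 5 cartilage and 7 mesothelial markers, by replicate number, 1 point per library, coloured by dose and open for the 3 libraries with the most unaligned pairs. Tbx4 and both marker sums fall into numbers 1 to 3 and 4 to 6 without overlap, and the HoxC share is 2.16% to 2.79% in the former and 0.706% to 2.19% in the latter. Tbx5 and the fibroblast marker sum, not drawn, overlap between these numbers. The share of all genes that divide as Tbx4 does was not counted.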

How the data were processed

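RNA from MEFs was sequenced as 18 paired, stranded total-RNA libraries. The deposited values are raw read counts per mouse Ensembl gene, made by the authors with HISAT2 and HTSeq, with FastQC and SAMtools 1.2 also named in the submitters' processing notes. Those notes name GRCh38, a human build, while the identifiers are mouse; the mouse build, annotation release and strand setting are not given in the sources used here. Rows that name no gene (unaligned, outside any gene, in several places or genes, low quality) were kept out of library sizes; unaligned pairs were 1.72% to 54.2% of a library and pairs outside any gene 6.85% to 15.5%.

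Gene symbols and exon lengths were taken from the GRCm39 annotation GENCODE M39, where 51731 of 55487 identifiers matched. Counts were scaled by TMM to CPM and, to compare genes, divided by the union of exons in kb. Genes were filtered by filterByExpr on dose and tested with the edgeR 4.0.16 quasi-likelihood test (robust, R 4.3.3) on all 18 libraries, with Benjamini-Hochberg adjustment over all genes and a threshold of 0.05. Dose was fitted alone, and replicate number as an F test in a model with dose. Shares were compared by exact permutation tests and, within replicate numbers, by an exact test over sign changes. The fits were tested on simulated data. Gene counts per library ran from 3963932 to 20775298, so genes with few counts have wide intervals.

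The Hox members, lists (microRNA genes and noncoding RNAs of the clusters, neighbours, TALE partners, ParaHox, Polycomb and Trithorax, limb, head and visceral factors, and 8 cell type marker lists) and tests were chosen with earlier results of these data known. Named were all members past the threshold, leaders in level and the lowest detected gene of each cluster, the 3 members of smallest p per dose comparison, and at most 5 genes per list by the number test with a mean of at least 1 CPM. Other list genes named were chosen after their values were seen. Of 165 list genes 161 were found. Alternatives were other filters, normalisations, lengths, DESeq2 1.42.0, limma 3.58.1 voom, the replicate block and leaving out libraries.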

Additional observations from a re-analysis of the deposited data

Results flagged for a closer look

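Within each dose group of 6 libraries, 1 library stood far from the others in 19 of 108 checks of Hox genes and shares (Dixon's test at the 95% level), or 17.6%, where chance gives about 1 in 20. Of the 19, 16 lay in the 3 libraries with the most unaligned pairs.

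In control library 1, with 54.2% of pairs unaligned, the high values were Hoxa5 at 3.50 CPM, Hoxb6 at 5.66, Hoxb8 at 2.96, Hoxd10 at 11.3, Hoxd11 at 23.4 and Hoxd13 at 126. Its HoxA share was low at 22.2% and its HoxD share high at 62.8%. In 30 µM library 6, with 37.9% unaligned, the high values were Hoxb5 at 4.02 CPM, Hoxb8 at 5.42, Hoxd10 at 10.1, Hoxd11 at 30.9, Hoxd13 at 110 and the HoxD share at 60.3%, and Hoxa7 was low at 3.09 CPM. In 10 µM library 6, Hoxa3 was high at 1.81 CPM. The study dropped a library of the control arm and a library of the higher-dose arm for human RNA, without the labels naming them. The part of the unaligned pairs, or of human RNA, in these values was not tested.

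The other 3 lay in libraries with few unaligned pairs. Hoxb7 was low at 1.57 CPM in 10 µM library 5, the HoxB share was high at 19.1% in 10 µM library 4, and Hoxa6 was high at 1.05 CPM in 30 µM library 5.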

How the results depend on the processing

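No Hox gene was called at any dose under the 10 alternatives tried for each comparison or on leaving out each library (0 to 0 calls). The replicate block also gave 0 calls in each. Dose was fitted without it because the methods name no pairing, although libraries of the same number did deviate together. The correlation r of deviations from the dose means had a median of 0.404 in 18 pairs of the same number, with 16 over 0.1. In 90 pairs of other numbers the median was -0.0646, with 27 over 0.1. Comparing shares within numbers, a replicate block chosen after seeing the data, gave the HoxB share at 30 µM an exact p of 0.0312 against control and against 10 µM (n = 6 numbers), the smallest that 6 numbers allow (adjusted p = 0.281 over 18 tests). Without the 3 libraries the p was 0.125 over 4 numbers and 0.0625 over 5 (exact test), again the smallest possible, with the share higher in every number. The number test, with 6 calls, gave 3 of 17 with at least 10 counts in every library, 14 with limma voom and 10 without the control and 30 µM library with the most unaligned pairs, and 3 to 11 on leaving out 1 library. The 13 positional genes became 26 with DESeq2, 41 with voom, 21 without the 3 libraries and 25 without the control and 30 µM library, and 10 to 30 on leaving out 1 library. The causes were not tested, beyond the fewer genes tested under the count filter. The shares of all genes called in these fits are not given here, so nothing about Hox genes is read from the changes in count. Hoxd12 was lost under library totals and with no filter (adjusted p up to 0.0920), and Hoxd13 was called under voom (0.0121). Leaving out 1 library gave HoxA 29.8% to 30.4%, HoxB 15.3% to 15.8%, HoxC 1.92% to 2.04% and HoxD 51.8% to 52.7%. With exon bases not shared on the same strand, chosen after seeing the data, HoxD was 52.9%. Low counts limit HoxC most.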
